A study of Mus musculus with 9 samples.

Results

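The comparison set irradiated calf muscle (RL) against muscle of unirradiated control mice (CTL), both gastrocnemius of C57Bl6J mice about 8 weeks old, with 3 mice in each group. It uses 6 of the 9 libraries of the series, chosen by their labels alone. RL muscles came from a hind limb given 3 sessions of 8.2 Gy from 4 weeks of age and were taken 3 weeks later. CTL mice received 0 Gy. The other 3 libraries came from the opposite limb (CL) of the mice that gave RL. No transgene, agent or genotype separates the groups, and no sex is given in the labels. The groups are different animals, so effects of the irradiated limb cannot be told apart from other differences between the RL mice and the CTL mice. The question the comparison addresses, as the design states it, is which transcripts differ after radiation in growing muscle.

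Ionising radiation breaks DNA, and the protein p53 answers by switching on genes that stop the cell cycle or start cell death. Skeletal muscle is made of long postmitotic fibres, whose growth and repair draw on satellite cells, stem cells marked by the transcription factor Pax7. Between the fibres lie capillaries, pericytes, fibroblasts, tendon cells, nerve and macrophages. Interferons, which immune and tissue cells release on viral infection or when nucleic acids appear in the wrong place, induce a well-known set of antiviral genes.

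Library totals were 37666237, 42050110 and 42768014 counts in RL, against 41784144, 30836057 and 36517245 counts in CTL. Mitochondrially encoded genes took 44.0% to 51.8% of the counts in RL, against 31.1% to 46.7% in CTL (two-sided exact permutation test, p = 0.2; the smallest p that 3 against 3 allows is 0.1). Values below are CPM, each library's share of counts on a common scale, normalised by edgeR's trimmed mean of M values. Marker genes of fast muscle fibres were abundant in every library, as the labelled tissue calls for, with Myh4 at 33644, 25179.8 and 23867 CPM in RL, against 35167, 38576 and 35748 CPM in CTL. RL 2 stood apart in skin markers, whose summed level was 7.66, 25.9 and 7.18 CPM in RL, against 8.06, 8.63 and 8.25 CPM in CTL. CTL 1 stood apart in Gm42418, a locus known to collect ribosomal RNA reads, with 198, 216 and 205 CPM in RL, against 1693, 249 and 199 CPM in CTL. Every pair of replicates differed by more than counting noise.

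Of 14513 genes tested, 505 passed edgeR's quasi-likelihood test at a Benjamini-Hochberg adjusted p under 0.05 (3.48% of the genes tested). There were 380 genes higher in RL (2.62%) and 125 lower in RL (0.861%). The genes that passed had a median absolute log2 fold change of 1.202. The 3 RL and 3 CTL libraries did not overlap for any of the 505, while 20.6% of all tested genes had groups that did not overlap, 10.4% with RL above CTL and 10.2% with RL below. Increases were larger than decreases. Of the 77 genes with an absolute log2 fold change of at least 2, 72 were higher in RL and 5 lower. Of the 23 genes with a change under 0.5, 8 were higher and 15 lower. The median log2 fold change over all tested genes was -0.01.

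**Figure D1:**
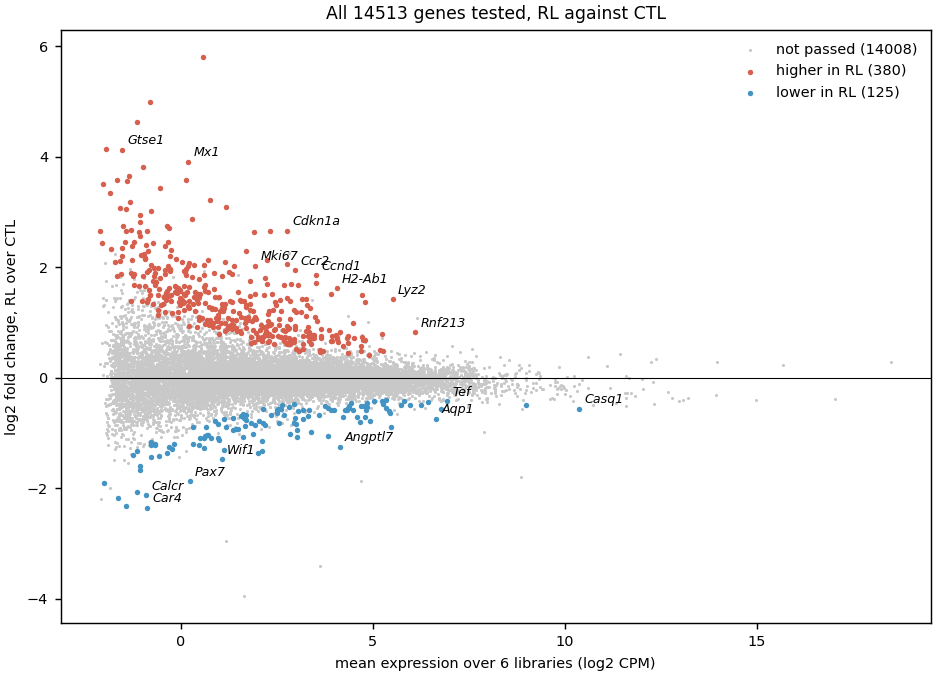
Each point is 1 of the 14513 genes tested, with mean expression over the 6 libraries (log2 CPM) on the x axis and log2 fold change of RL over CTL on the y axis. The 380 genes higher in RL (red) reach larger changes and lie at lower expression than the 125 genes lower in RL (blue), and 14008 genes (grey) did not pass.

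The 2 directions differed in expression level and gene length. Of 2776 genes whose mean log2 CPM was under 0, 114 were higher in RL and 20 lower. Of 827 genes whose mean log2 CPM was 6 or more, 1 was higher in RL and 7 lower. The gene higher in RL in that top class was Rnf213, an interferon-inducible ubiquitin ligase, at 107, 60.4 and 96.4 CPM in RL, against 50.5, 48.9 and 50.1 CPM in CTL. Among protein-coding genes shorter than 5 kb, 42 of 1249 were higher in RL and 6 lower. Among those of at least 100 kb, 26 of 1884 were higher and 32 lower. Protein-coding genes made up 364 of the increases and 110 of the decreases. Long noncoding RNAs gave 9 increases and 11 decreases among 1375 tested. Pseudogenes gave 6 increases and no decrease among 216 tested.

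The RL libraries did not contribute equally. For 320 of the 380 genes higher in RL (84.2%), RL 2 was the RL library nearest to CTL. For the 125 genes lower in RL that share was 44.0%. With 1 library left out, the number of genes passing the test was 226 without RL 1, 698 without RL 2, 152 without RL 3, 361 without CTL 1, 277 without CTL 2 and 406 without CTL 3. Of the 505 genes, 146 passed in every one of the 6 fits with 1 library left out, 128 of them higher in RL and 18 lower. Of the genes named here that passed with all 6 libraries, Adgrf5, Bhlhe41, Dll4, Drp2, Matn3, Npas2, Tgfbr3, Timp3 and Trp53cor1 passed in none of these 6 fits. Adm, Btk, Cacna1s, Cacng1, Casq1, Cd68, Ddx58, Dnajb1, Fbxo21, Fgr, Id1, Igfbp7, Itga5, Klf6, Loxl1, Mir1a-1, Odf3l2, Psmb8, Tef, Tnfrsf1b and Wnt4 passed in 1 of the 6. A further fit on all 9 libraries, in which the CL libraries add to the estimate of the spread, left 77 genes, and its counts are given beside the lists below. With CL 1 left out of that fit, a run added after the libraries were seen, 600 genes passed. It had 30 interferon-stimulated, 33 Fc receptor and signalling, 9 MHC class II and 15 mitosis genes higher, and 6 clock genes lower. Why CL 1 changed these counts was not tested.

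Functional groups were read from 71 gene lists with 1803 distinct genes found in the count table. Of the 505 genes that passed, 228 (45.1%) stood in at least 1 list and 277 in none, while 1578 of the 14513 genes tested stood in a list. The lists were chosen with earlier results of these data known. The lists with the most increases were Fc receptors and immune cell signalling (33) and interferon-stimulated genes (29), and the list with the most decreases was tenocyte markers (10). Lists share members, so their counts are not independent. The expression filter keeps a low gene that reaches its cutoff in 3 libraries, which can be those of 1 group alone. Counts and medians of lists with low genes can therefore be moved by the choice of genes tested.

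**Figure D2:**
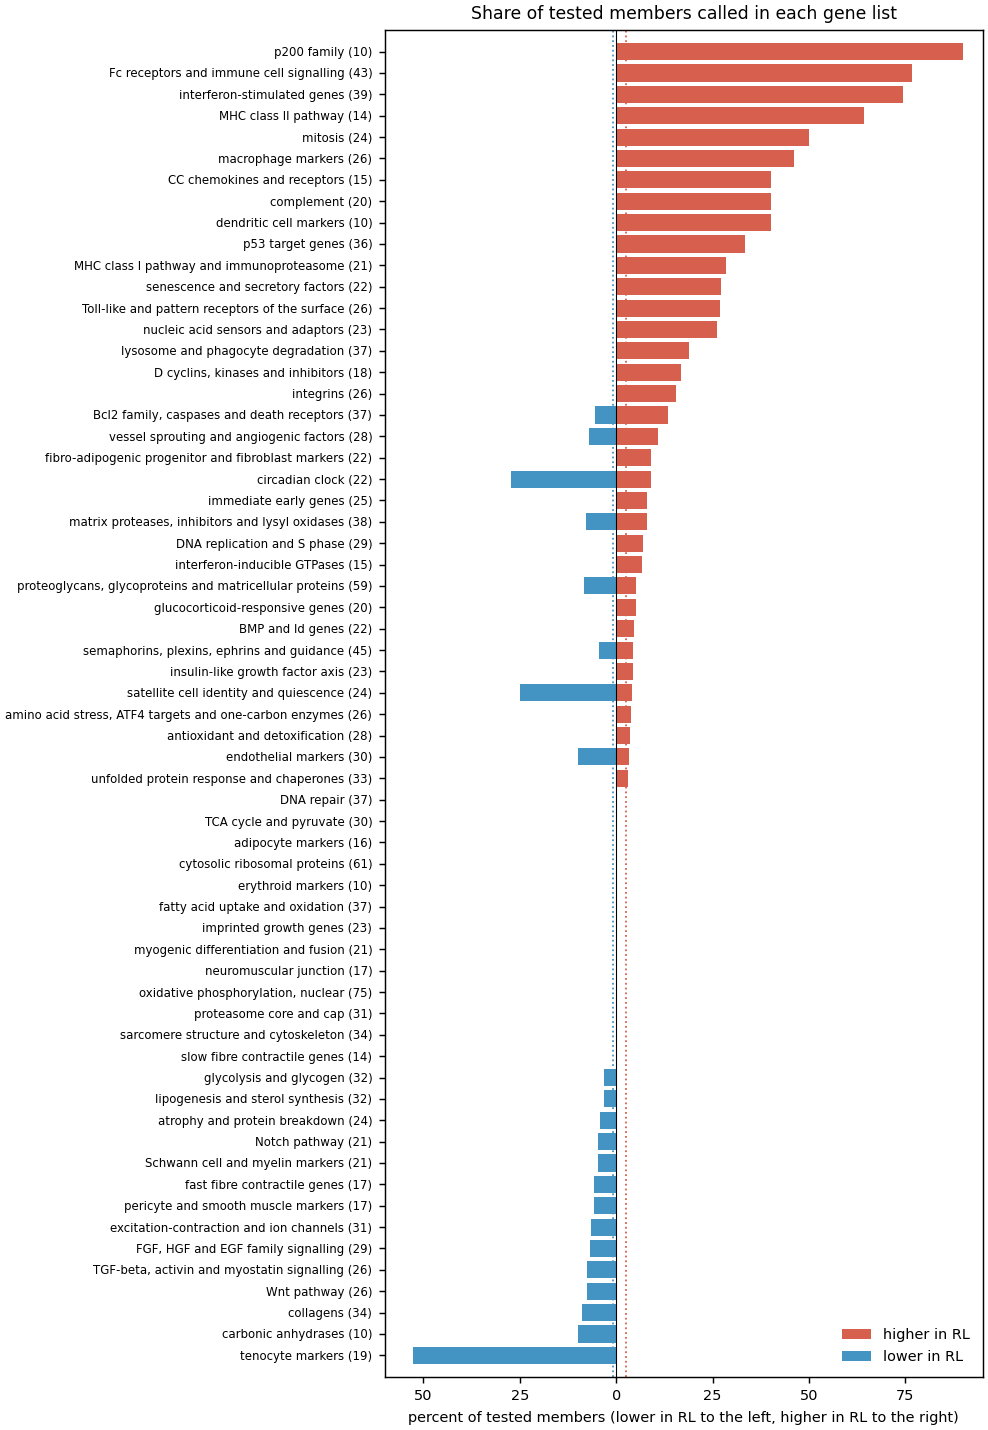
Bars give the percent of tested members of each list of at least 10 tested genes that were higher (red, right) or lower (blue, left) in RL, with the number tested in parentheses. Dotted lines mark the shares over all tested genes, 2.62% higher and 0.861% lower. The p200 family (9 of 10) reaches farthest right and the tenocyte markers (10 of 19) farthest left.

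Among p53 targets, 12 of 36 tested genes were higher in RL and none lower (4 of 40 members were too low to test). Over all tested genes 2.62% were higher and 0.861% lower. The list's median log2 fold change was 0.42. The summed level of all 40, led by Ccng1, was 1958, 2073 and 1967 CPM in RL, against 1901, 1870 and 1882 CPM in CTL (ratio of means 1.06). Cdkn1a (chr17:29090976-29100727, GRCm38), which encodes the p21 inhibitor of cyclin-dependent kinases, had 13.9, 9.65 and 11.1 CPM in RL, against 1.58, 2.16 and 1.72 CPM in CTL. Every RL library stood above every CTL library. It gave the smallest p of all 14513 genes (log2 fold change 2.66, SE 0.18, adjusted p = 8.6e-05), where SE is the standard error of the log2 fold change. Pmaip1 and Bax, both promoters of mitochondrial cell death, were higher too. Bax had 3.01, 3.30 and 3.25 CPM in RL, against 1.90, 1.57 and 1.45 CPM in CTL, and the groups did not overlap (log2 fold change 0.95, SE 0.17, adjusted p = 0.01). Sesn2, a sestrin that restrains mTORC1, had 2.35, 1.61 and 1.87 CPM in RL, against 0.551, 0.899 and 0.653 CPM in CTL (log2 fold change 1.47, SE 0.25, adjusted p = 0.0078). Gtse1 and Ckap2, which are also cell-cycle genes, had log2 fold changes of 4.13 and 2.83 from low counts. Gtse1 had 0.434, 0.318 and 0.849 CPM in RL, against 0.0501, 0 and 0.0297 CPM in CTL. Genes as low in CTL as Gtse1, Ckap2 and Pmaip1 can enter the test through the RL libraries alone, which can raise the count of 12 and the median. Trp53cor1, the noncoding RNA next to Cdkn1a also called lincRNA-p21, had 0.562, 0.758 and 0.582 CPM in RL, against 0.200, 0.225 and 0.297 CPM in CTL (log2 fold change 1.40, SE 0.32, adjusted p = 0.039). Other known targets did not pass: Mdm2 had a log2 fold change of 0.26, Ccng1 of 0.19 and Gadd45a of -0.14. The count of 12 fell to 5 without RL 1, 4 without RL 3, 7 without CTL 2 and 1 in the fit on all 9 libraries.

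A promoter stretch of Cdkn1a is shown because it holds the spaced CATG pair that forms the core of a p53 response element. It lies before 1 of the Cdkn1a starts in RefSeq (GRCm38.p6, chr17:29090906-29090969, plus strand), and capitals mark the match, CATG followed by any 6 bases and a second CATG.
Cdkn1a: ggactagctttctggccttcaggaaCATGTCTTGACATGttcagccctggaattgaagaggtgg
The motif was searched on both strands over the window of 300 bases that RefSeq's promoter table gives around each start. It was present in 0.374% of the promoters of tested genes. Among p53 targets with a promoter sequence it was present in 1 of the 25 tested, Cdkn1a, which is 1 of the 8 higher in RL.

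DNA repair genes showed no such pattern. None of 37 tested repair genes passed edgeR's test or DESeq2's, and 5 had an unadjusted p under 0.05. Brca1 and Bard1, partners in the repair of double-strand breaks, had log2 fold changes of 1.11 and 1.27 and did not pass. The list's median was 0.03. Of 28 antioxidant genes 1 passed, Ucp2, a mitochondrial carrier, at 10.1, 7.65 and 13.1 CPM in RL, against 5.31, 6.32 and 4.42 CPM in CTL (log2 fold change 0.94, SE 0.19, adjusted p = 0.021). That is 3.57% of the list, near the 3.48% over all tested genes. Among 22 tested senescence and secretory genes, 6 were higher in RL and none lower. They were Cdkn1a, the chemokines Ccl2, Ccl7 and Ccl8, the macrophage elastase Mmp12 and Igfbp7, a binding protein of insulin-like growth factors. Ccl2, which draws monocytes, had 1.84, 0.806 and 2.25 CPM in RL, against 0.326, 0.393 and 0.534 CPM in CTL (log2 fold change 1.97, SE 0.38, adjusted p = 0.017). The secretory count was 2 without RL 1, 10 without RL 2, 1 without RL 3, 2 without CTL 2 and 1 with all 9 libraries.

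Interferon-stimulated genes rose as a broad group. Of 39 tested, 29 were higher in RL, none was lower, and the median log2 fold change was 1.09. Irf7, the transcription factor that amplifies interferon production, had 9.68, 2.91 and 6.35 CPM in RL, against 1.10, 1.18 and 0.742 CPM in CTL. RL 2 was the lowest RL library and still exceeded all CTL libraries (log2 fold change 2.63, SE 0.38, adjusted p = 0.0047). Mx1, a GTPase that blocks viral replication, had 2.91, 1.39 and 1.67 CPM in RL, against 0.0751, 0.112 and 0.208 CPM in CTL (log2 fold change 3.92, SE 0.42, adjusted p = 0.00097). Ifit1, which binds foreign RNA caps, had 7.41, 3.45 and 4.90 CPM in RL, against 1.30, 0.815 and 1.07 CPM in CTL (log2 fold change 2.29, SE 0.28, adjusted p = 0.0023). Isg15, a ubiquitin-like modifier, had 1.02, 0.880 and 0.824 CPM in RL, against 0.200, 0.112 and 0.178 CPM in CTL (log2 fold change 2.44, SE 0.33, adjusted p = 0.0033). The oligoadenylate synthetases, which activate RNase L, moved together: Oas1a, Oas1g, Oas2, Oas3, Oasl1 and Oasl2 had log2 fold changes of 2.72, 3.57, 2.03, 3.44, 3.02 and 1.75, and all passed. Stat2 (0.64), which carries the interferon signal, did not pass, and Irf9, its partner, did (0.77). Rsad2 (1.09) did not pass either. The count of 29 was 15 without RL 1, 14 without RL 3, 16 without CTL 2 and 8 with all 9 libraries. As a per-library summary, the median of the list's log2 differences from the CTL mean was 1.14, 0.57 and 0.90 in RL 1, 2 and 3, against 0.04, -0.07 and -0.01 in CTL 1, 2 and 3.

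Promoter stretches of 4 interferon-stimulated genes that rose are shown because each carries a pair of GAAA repeats set 2 bases apart, the core of the interferon-stimulated response element, or of its reverse complement. Capitals mark the matches. Sequences are from RefSeq, build GRCm38.p6, 5' to 3' on the gene's strand.
Ifit1 (chr19:34640760-34640838, plus strand): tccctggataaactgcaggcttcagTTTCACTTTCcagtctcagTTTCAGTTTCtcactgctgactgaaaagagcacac
Isg15 (chr4:156200850-156200921, minus strand): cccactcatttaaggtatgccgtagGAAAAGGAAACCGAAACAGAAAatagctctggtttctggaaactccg
Bst2 (chr8:71537562-71537627, minus strand): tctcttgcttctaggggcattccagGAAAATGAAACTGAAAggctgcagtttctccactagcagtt
Oas1g (chr5:120887591-120887656, minus strand): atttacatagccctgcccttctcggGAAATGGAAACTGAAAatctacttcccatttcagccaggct
Isg15 held 3 overlapping matches and each of the others 2. The motif was present in 378 of the 10154 tested genes with a promoter sequence (3.72%), in 41 of 276 genes higher in RL (14.9%) and in 1 of 84 genes lower in RL (1.19%). Among the interferon-stimulated genes with a sequence it was present in 13 of the 28 tested and in 10 of the 21 that rose. A match describes the letters in the window, not binding.

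The p200 family encodes DNA-binding proteins of the innate immune response that sit in 1 cluster on chromosome 1. It held 9 genes higher in RL among 10 tested. Ifi209 had 2.25, 1.83 and 2.01 CPM in RL, against 0.275, 0.337 and 0.208 CPM in CTL (log2 fold change 2.87, SE 0.25, adjusted p = 0.00036). Ifi213 had 2.94, 0.904 and 1.87 CPM in RL, against 0.125, 0.225 and 0.119 CPM in CTL (log2 fold change 3.58, SE 0.49, adjusted p = 0.0035). Mndal and Ifi203 had smaller changes, with log2 fold changes of 0.98 and 1.198. Aim2, the sensor of cytosolic DNA in this family, had a log2 fold change of 0.95 and did not pass. The p200 genes are close copies of each other, so reads could be split between them and values of single members are uncertain. With all 9 libraries 2 of them passed.

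Nucleic acid sensors gave 6 increases among 23 tested and no decrease. Zbp1, a sensor of left-handed nucleic acid, had 1.53, 0.831 and 1.31 CPM in RL, against 0.175, 0.309 and 0.178 CPM in CTL (log2 fold change 2.46, SE 0.35, adjusted p = 0.0043). Dhx58, Ddx58 and Ifih1, the family of cytosolic RNA helicases that includes RIG-I, all passed, with log2 fold changes of 1.97, 0.73 and 0.64. Tlr8 and Unc93b1, which carries such receptors to endosomes, passed as well. The adaptors Mavs (-0.19) and Tmem173 (0.56, the gene of STING) and the cyclic GMP-AMP synthase gene Mb21d1 (1.38) did not. Interferon-inducible GTPases differed from the other antiviral genes in their count: 1 of 15 tested passed, Gbp3, at 6.23, 5.03 and 6.28 CPM in RL, against 3.58, 3.40 and 2.73 CPM in CTL (log2 fold change 0.85, SE 0.15, adjusted p = 0.011), while for 7 the unadjusted p was under 0.05. Their median log2 fold change was 0.32, and Gbp5 stood at -0.17 and Tgtp1 at -0.60. With all 9 libraries 1 sensor and no GTPase gene passed, and without CTL 2 the GTPase count was 3. Whether the GTPase genes differ from the other interferon-stimulated genes was not tested.

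Antigen presentation by MHC class II, the route by which macrophages, dendritic cells and B cells show peptides to helper T cells, gave 9 increases among 14 tested genes and no decrease. The median log2 fold change was 1.41. H2-Ab1 had 26.1, 21.7 and 27.3 CPM in RL, against 9.06, 8.54 and 6.68 CPM in CTL (log2 fold change 1.63, SE 0.14, adjusted p = 0.00036). H2-Aa, its partner chain, had 39.8, 34.5 and 42.4 CPM in RL, against 16.6, 12.9 and 11.8 CPM in CTL (log2 fold change 1.496, SE 0.14, adjusted p = 0.00051). Cd74, the invariant chain, had 46.2, 33.1 and 40.4 CPM in RL, against 17.5, 15.7 and 13.2 CPM in CTL (log2 fold change 1.37, SE 0.14, adjusted p = 0.00088). In all 3 genes RL 2 was the lowest RL library and lay above the highest CTL library. Ciita, the transcriptional activator of class II genes, had 2.86, 1.93 and 2.25 CPM in RL, against 0.526, 0.618 and 0.564 CPM in CTL (log2 fold change 2.04, SE 0.23, adjusted p = 0.0013). Between 7 and 10 members passed in each fit with 1 library left out, but 1 passed with all 9 libraries. MHC class I genes, which most cells express, gave 6 increases among 21 tested, with smaller changes, the largest being the immunoproteasome subunit Psmb8 at a log2 fold change of 0.93. B2m, the light chain of class I molecules, had 58.9, 33.4 and 51.2 CPM in RL, against 32.4, 24.4 and 25.8 CPM in CTL (log2 fold change 0.80, SE 0.19, adjusted p = 0.04). This class I count was 0 without RL 1, 0 without RL 3, 3 without CTL 1, 2 without CTL 2, 1 without CTL 3 and 0 with all 9 libraries.

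Genes of Fc receptors and immune cell signalling were the largest called group: 33 of 43 tested were higher in RL, none was lower, and all 43 had a positive log2 fold change. Ptprc, which encodes the pan-leukocyte antigen CD45, had 17.3, 14.2 and 20.7 CPM in RL, against 5.93, 4.13 and 5.76 CPM in CTL (log2 fold change 1.72, SE 0.17, adjusted p = 0.00071). Laptm5, a lysosomal membrane protein of blood cells, had 9.17, 4.76 and 7.10 CPM in RL, against 1.93, 2.08 and 2.02 CPM in CTL (log2 fold change 1.802, SE 0.22, adjusted p = 0.0021). The phagocyte oxidase genes Cybb, Ncf1 and Ncf4 had log2 fold changes of 1.40, 1.33 and 2.41, and these passed. The kinases Syk, Btk, Lyn and Fgr passed, at log2 fold changes between 0.66 (Lyn) and 1.85 (Fgr). Spi1 (0.86) and Irf8 (0.44), transcription factors of myeloid cells, did not pass. The count was 19 without RL 1, 16 without RL 3 and 2 with all 9 libraries.

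Macrophage markers gave 12 increases among 26 tested and no decrease. Lyz2, the lysozyme of myeloid cells, had 78.5, 52.3 and 69.0 CPM in RL, against 29.4, 24.8 and 20.1 CPM in CTL (log2 fold change 1.43, SE 0.17, adjusted p = 0.0017). Adgre1, which encodes the F4/80 antigen, had 11.5, 8.19 and 12.5 CPM in RL, against 5.68, 4.13 and 3.95 CPM in CTL (log2 fold change 1.22, SE 0.18, adjusted p = 0.0056). Ccr2, the receptor through which monocytes follow Ccl2, had 10.7, 10.996 and 15.2 CPM in RL, against 3.33, 2.70 and 3.53 CPM in CTL (log2 fold change 1.95, SE 0.17, adjusted p = 0.00036). The markers of resident macrophages Cd163 (0.08), Timd4 (-0.36) and Mrc1 (0.58) did not pass. The summed level of all 27 macrophage markers was 419, 324 and 402 CPM in RL, against 276, 235 and 236 CPM in CTL, and none of the 27 was at 0. In bulk muscle more cells of a type and more RNA per cell cannot be told apart. How far macrophage number accounts for the interferon, antigen presentation and Fc receptor counts was not tested. The macrophage count was 7 without RL 1, 6 without RL 3 and 2 with all 9 libraries.

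Other immune classes gave fewer calls. Dendritic cell markers gave 4 increases among 10 tested, Itgax, Batf3, Irf4 and Bst2. Of 29 T, B and NK cell markers only 2 were abundant enough to test, Cd2 and Ighm, and Cd2 passed from a low level (0.485, 0.391 and 0.800 CPM in RL, against 0.0751, 0.0562 and 0.0593 CPM in CTL). Of 20 neutrophil and mast cell markers 7 could be tested and none passed edgeR's or DESeq2's test, with 1 at an unadjusted p under 0.05. Ly6g and Elane, defining markers of neutrophils, had no count in any library. CC chemokines and their receptors gave 6 increases among 15 tested, including Ccl6 at 12.7, 9.99 and 14.5 CPM in RL, against 3.98, 3.65 and 4.03 CPM in CTL (log2 fold change 1.67, SE 0.15, adjusted p = 0.00036). Cxcl9, a chemokine induced by interferon gamma, had 2.68, 1.42 and 2.01 CPM in RL, against 0.601, 0.646 and 0.504 CPM in CTL (log2 fold change 1.79, SE 0.27, adjusted p = 0.0059). Complement gave 8 increases among 20 tested, with C1qa, C1qb and C1qc, the chains of C1q, at log2 fold changes of 1.10, 1.1998 and 0.92. C3, the central component, had 0.29 and did not pass. Surface and other pattern receptors gave 7 increases among 26 tested. Among them were Nlrp1b, a cytosolic sensor (log2 fold change 1.92), and Clec4a1, Clec4a2 and Clec4a3, neighbouring lectin genes that are close copies. Lysosomal genes gave 7 increases among 37 tested, and these were genes with high expression in phagocytes, such as Lyz1, Ctss and Cd68, while the general lysosomal genes Lamp1 (0.01), Ctsd (0.02) and Psap (-0.06) did not pass. These counts moved with single libraries. Without RL 3, 1 dendritic, 3 chemokine, 5 complement, 3 pattern receptor and 3 lysosomal genes passed. Complement gave 5 without RL 1 and 5 without CTL 2. Pattern receptors gave 3 without RL 1, 11 without CTL 1 and 3 without CTL 2, and lysosomal genes gave 3 without RL 1, 11 without RL 2 and 4 without CTL 2. With all 9 libraries 2 dendritic, 3 chemokine, 1 complement, 3 pattern receptor and 1 lysosomal gene passed.

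**Figure D3:**
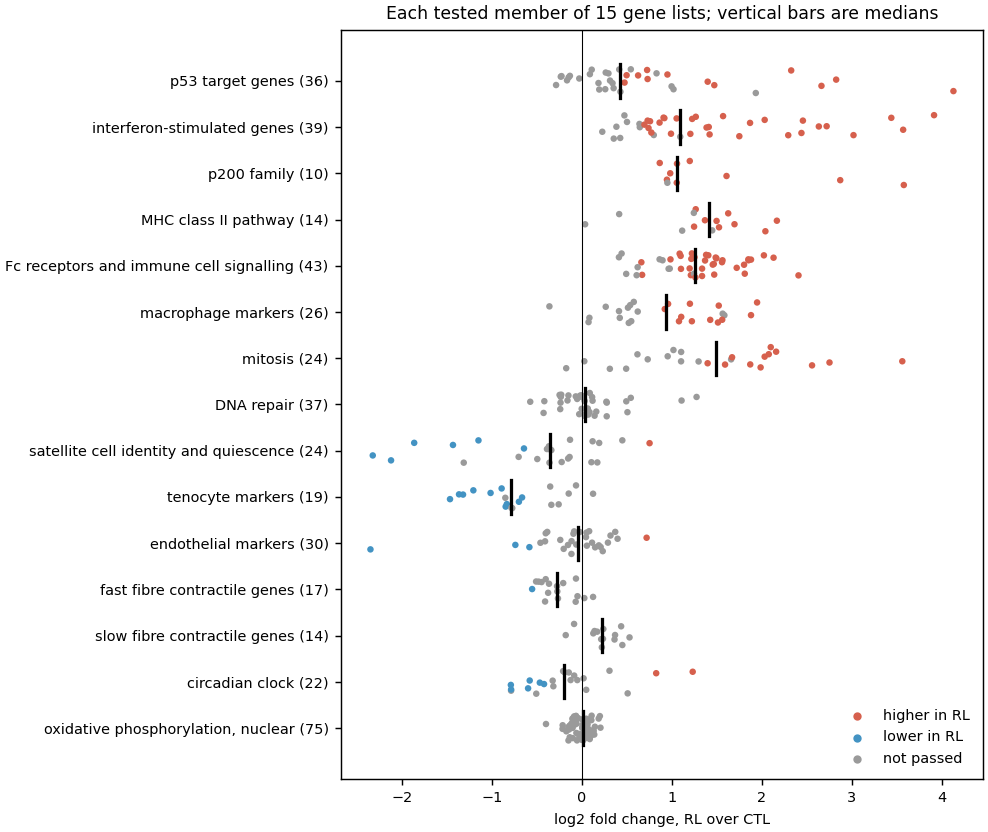
Each point is the log2 fold change (RL over CTL, x axis) of 1 tested member of the 15 gene lists on the y axis, red where higher in RL, blue where lower and grey where the test was not passed. Vertical bars mark medians over the tested members alone, which run from 1.49 for mitosis genes to -0.79 for tenocyte markers. Vertical scatter within a row carries no information.

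**Figure D4:**
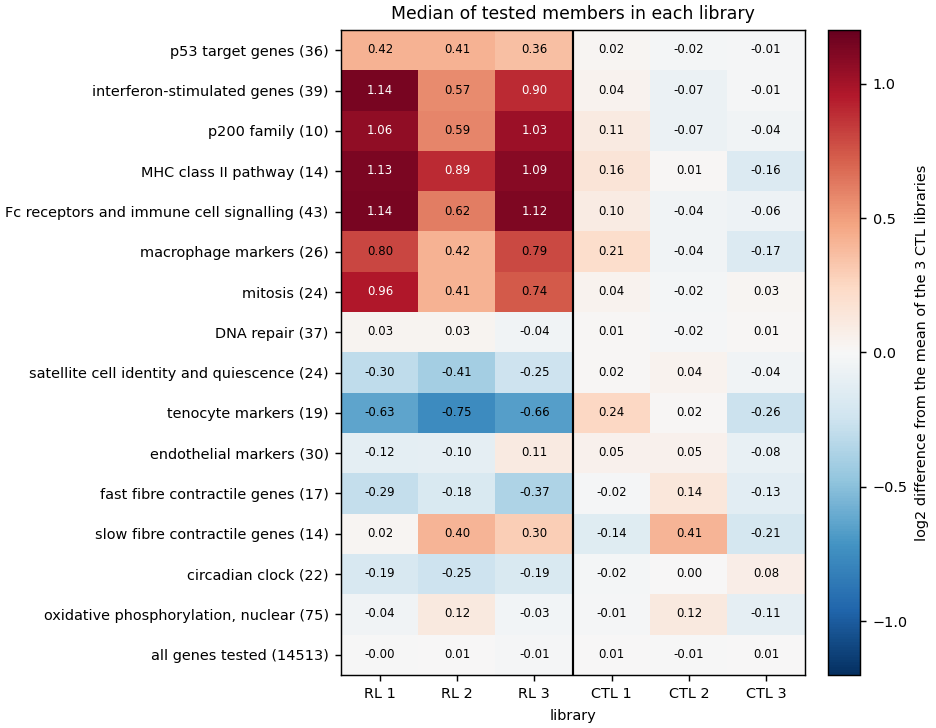
Rows are gene lists with the number of tested members, and columns are the 3 RL libraries and the 3 CTL libraries. Colours and numbers give the median over members of the log2 difference from the mean of the CTL libraries. The interferon, p200, MHC class II, Fc receptor, macrophage and mitosis lists are lower in RL 2 than in RL 1 and RL 3, whereas the p53 targets stand at 0.42, 0.41 and 0.36 in the 3 RL libraries.

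Mitosis genes were higher in the irradiated limb. Of 24 tested, 12 passed and all 12 were higher, with a median of 1.49 over the 24 (19 of 43 members were too low to test). The expression filter keeps a low gene that reaches its cutoff in 3 libraries, which can be the RL libraries alone. That median can therefore be raised by the choice of genes tested. The summed level of all 43 was 61.7, 42.9 and 47.4 CPM in RL, against 24.9, 21.7 and 21.6 CPM in CTL (ratio of means 2.23). Mki67, the proliferation marker Ki-67, had 7.84, 4.15 and 6.04 CPM in RL, against 1.78, 1.24 and 1.36 CPM in CTL (log2 fold change 2.03, SE 0.24, adjusted p = 0.0017). Top2a, which untangles replicated DNA, had 4.55, 2.35 and 3.61 CPM in RL, against 0.952, 0.450 and 1.04 CPM in CTL (log2 fold change 2.10, SE 0.31, adjusted p = 0.0052). Prc1, Racgap1 and Kif23, which build the central spindle, passed with log2 fold changes of 2.75, 1.40 and 1.67. Replication genes gave 2 increases among 29 tested, Ccna2 and Uhrf1, and Pcna (0.23) and Mcm2 (0.03) did not pass. Among the regulators of entry into the cycle, the cyclins Ccnd1 and Ccnd2 and the inhibitor Cdkn1a were higher. Ccnd1 had 22.7, 12.2 and 18.8 CPM in RL, against 4.86, 4.66 and 5.34 CPM in CTL (log2 fold change 1.85, SE 0.20, adjusted p = 0.00089). All 3 passed in every fit with 1 library left out. Which cells carry the mitosis transcripts was not tested. RL 2 was the lowest RL library for Mki67 and Top2a. The mitosis count was 7 without RL 1, 20 without RL 2, 7 without RL 3, 7 without CTL 2 and 0 with all 9 libraries. It was 15 when CL 1 was left out of the 9. On a scale fitted to all 9 libraries, Mki67 had 10.4, 0.847 and 2.09 CPM in CL 1, 2 and 3. The 2 replication increases were 1 without RL 1, RL 3, CTL 1 or CTL 2 and 0 with all 9 libraries.

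Genes of cell death gave 5 increases and 2 decreases among 37 tested. Higher in RL were Bax, Pmaip1, Casp8, Apaf1 and Tnfrsf1b. Lower in RL were Bmf, a killer protein released from the cytoskeleton, and Tnfsf10, the death ligand TRAIL. Tnfsf10 had 2.96, 3.15 and 3.44 CPM in RL, against 5.38, 6.15 and 5.31 CPM in CTL (log2 fold change -0.82, SE 0.13, adjusted p = 0.0068). Bmf had 1.66, 2.00 and 2.04 CPM in RL, against 2.90, 4.02 and 3.95 CPM in CTL (log2 fold change -0.93, SE 0.18, adjusted p = 0.017). The 5 increases were 1 without RL 1, 0 without RL 3, 3 without CTL 1, 1 without CTL 2, 2 without CTL 3 and 0 with all 9 libraries. The 2 decreases were 1 without RL 1, RL 3 or CTL 2.

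**Figure D5:**
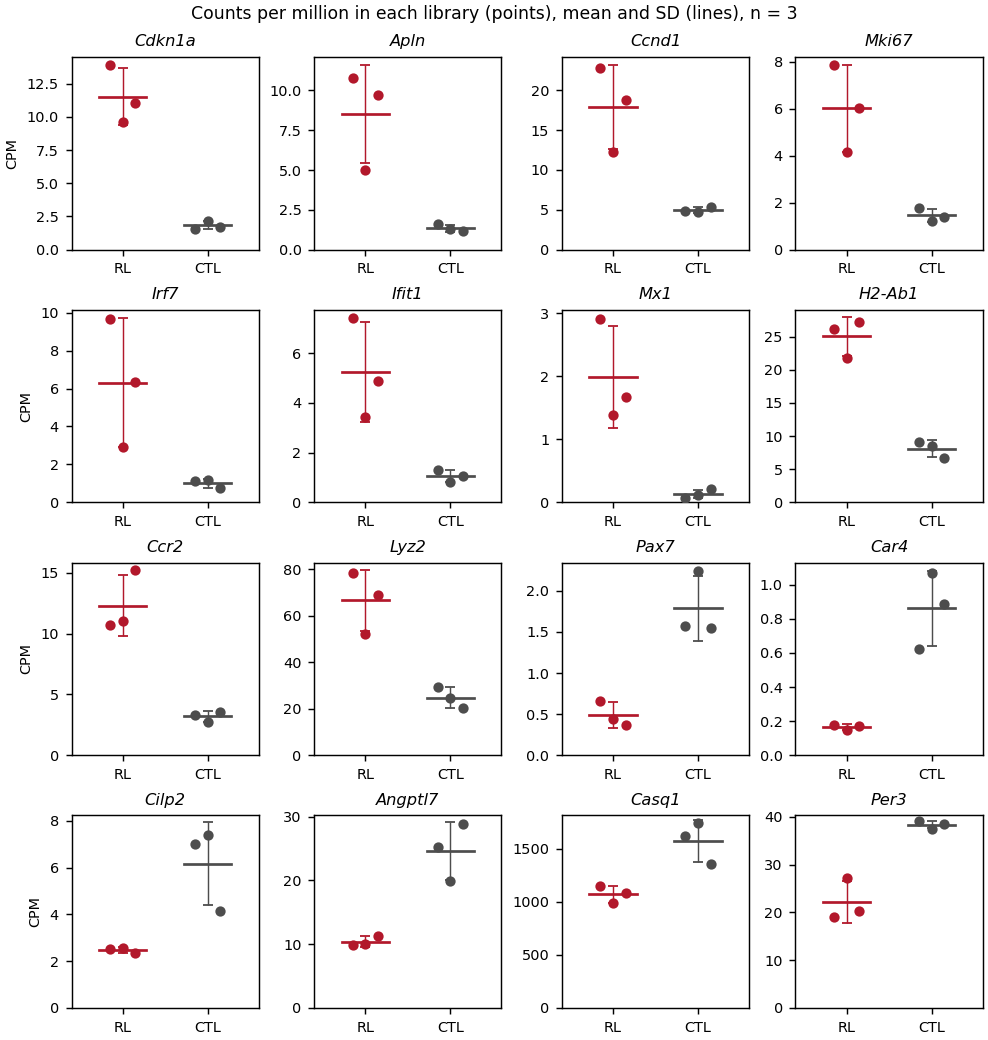
Each panel shows 1 gene in CPM (y axis from 0), with 1 point per library, RL at left and CTL at right, and lines for the mean and SD of 3 libraries. In all 16 panels the groups do not overlap. The spread among RL libraries is wide for Irf7, where RL 2 is lowest, and narrow for Car4 and Cilp2.

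Satellite cell genes stood among the decreases. Of 24 tested members, 6 were lower in RL and 1 higher, and the list's median was -0.36. Pax7 (chr4:139737062-139833528, GRCm38) had 0.664, 0.440 and 0.364 CPM in RL, against 1.58, 2.25 and 1.54 CPM in CTL (log2 fold change -1.87, SE 0.28, adjusted p = 0.0053). Calcr, the receptor of calcitonin, known for holding satellite cells in quiescence, had 0.179, 0.220 and 0.145 CPM in RL, against 0.901, 0.787 and 0.712 CPM in CTL (log2 fold change -2.13, SE 0.32, adjusted p = 0.0056). Fgfr4 had 0.0766, 0.171 and 0.0727 CPM in RL, against 0.526, 0.365 and 0.771 CPM in CTL (log2 fold change -2.33, SE 0.46, adjusted p = 0.018). These levels are low. Every RL library lay below every CTL library for each of the 3 genes, as for every gene called lower and for 10.2% of all tested genes. Myf5, a transcription factor of committed satellite cells, had 0.255, 0.342 and 0.267 CPM in RL, against 0.851, 0.674 and 0.831 CPM in CTL (log2 fold change -1.44, SE 0.29, adjusted p = 0.021). Chodl had 2.22, 3.23 and 2.55 CPM in RL, against 6.13, 6.41 and 5.25 CPM in CTL (log2 fold change -1.15, SE 0.16, adjusted p = 0.004). Dll4, a Notch ligand also made by endothelium, was lower and Sdc3, a heparan sulphate proteoglycan, was higher. Cdh15 (-0.23) and Vcam1 (0.45), further satellite cell markers, did not pass. As stated above, fewer cells and less RNA per cell are not separated here. The count of 6 was 3 without RL 3, 3 without CTL 3 and 3 with all 9 libraries.

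Myogenic differentiation genes did not pass. None of 21 tested passed edgeR's or DESeq2's test, and 5 had an unadjusted p under 0.05. Myod1 and Myog had log2 fold changes of 0.62 and 0.38. Embryonic myosin heavy chain, Myh3, had 9.76, 1.52 and 1.65 CPM in RL, against 1.25, 0.955 and 1.34 CPM in CTL. Igfn1, a sarcomeric protein, had 26.2, 3.32 and 5.28 CPM in RL, against 3.16, 1.88 and 2.20 CPM in CTL. Both genes were by far the highest in RL 1. For both, every RL library lay above every CTL library, as for 10.4% of all tested genes. Neither passed edgeR's test (adjusted p = 0.16 for Myh3 and 0.082 for Igfn1).

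Contractile genes gave few calls in edgeR's test. Of 17 fast fibre genes 1 passed, Casq1, the calcium store protein of the sarcoplasmic reticulum, which had 1144, 986 and 1081 CPM in RL, against 1621, 1745 and 1354 CPM in CTL (log2 fold change -0.56, SE 0.13, adjusted p = 0.043). The other fast genes had mostly negative log2 fold changes, 15 of 17 including Casq1, with a median of -0.28. DESeq2's test called 6 of the 17, all lower in RL. For 10 of the 17 all RL libraries lay below all CTL libraries, beside 10.2% of all tested genes. Myh4 stood at a log2 fold change of -0.41 with an adjusted p of 0.31, and Actn3 at -0.51. None of 14 slow fibre genes passed edgeR's or DESeq2's test, none reached an unadjusted p under 0.05, and their median was 0.23. None of 34 sarcomere genes passed edgeR's test, 2 passed DESeq2's and 9 had an unadjusted p under 0.05. In excitation-contraction coupling, 2 of 31 genes were lower by edgeR's test and 4 by DESeq2's. Cacna1s, the voltage sensor of the calcium channel, had 453, 430.4 and 385 CPM in RL, against 570.4, 664 and 556 CPM in CTL (log2 fold change -0.50, SE 0.12, adjusted p = 0.045). Cacng1, another subunit of that channel, had 57.3, 48.6 and 50.7 CPM in RL, against 76.7, 81.4 and 62.7 CPM in CTL (log2 fold change -0.50, SE 0.12, adjusted p = 0.045). Ryr1, the release channel it opens, had a log2 fold change of -0.50 and did not pass. Neither of these channel genes passed in the fits without RL 1, RL 2, RL 3, CTL 1 or CTL 2. Titin took 12.9%, 10.5% and 11.2% of the counts in RL, against 14.8%, 18.1% and 13.1% in CTL (exact permutation p = 0.1, the smallest possible). None of 17 neuromuscular junction genes passed edgeR's or DESeq2's test, with 1 at an unadjusted p under 0.05. Among 24 atrophy genes only Fbxo21 passed, with a log2 fold change of -0.53, while the ubiquitin ligases Trim63 (0.01) and Fbxo32 (0.29) did not. That is 4.17% of the list, near the 3.48% over all tested genes.

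Tendon cell genes showed the broadest decrease. Of 19 tenocyte markers tested, 10 were lower in RL, none was higher, and the median log2 fold change was -0.79. Wif1 (chr10:121033960-121100650), a secreted Wnt inhibitor, had 1.17, 0.929 and 1.16 CPM in RL, against 3.93, 2.81 and 2.28 CPM in CTL (log2 fold change -1.47, SE 0.23, adjusted p = 0.0062). Chad, a collagen-binding leucine-rich protein of cartilage and tendon, had 2.48, 1.98 and 2.28 CPM in RL, against 6.99, 6.55 and 3.83 CPM in CTL (log2 fold change -1.37, SE 0.22, adjusted p = 0.0062). Cilp2 had 2.503, 2.57 and 2.33 CPM in RL, against 6.99, 7.39 and 4.12 CPM in CTL (log2 fold change -1.32, SE 0.20, adjusted p = 0.0059). In these genes the RL libraries lay close together and CTL 3 was the lowest CTL library. Tnmd, a membrane protein typical of tendon, had 5.70, 5.33 and 6.13 CPM in RL, against 13.1, 8.29 and 9.23 CPM in CTL (log2 fold change -0.84, SE 0.16, adjusted p = 0.017). Fmod, Comp, Kera, Col11a1 and Col12a1, which organise collagen fibrils, passed with log2 fold changes from -1.02 (Col11a1) to -0.67 (Kera). The tendon transcription factors Scx (-0.26) and Mkx (-0.78) did not pass. The summed level of the list was 177, 143 and 161 CPM in RL, against 284, 252 and 202 CPM in CTL. How much tendon each dissected muscle held was not tested. The count of 10 was 5 without RL 3 and 2 with all 9 libraries. Cartilage genes Col2a1 and Matn3 were lower from low levels, with Col2a1 at 0.179, 0.293 and 0.145 CPM in RL, against 0.776, 0.759 and 0.445 CPM in CTL (log2 fold change -1.67, SE 0.38, adjusted p = 0.035).

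Other matrix genes split in direction. Of 34 collagens, 3 were lower in RL, Col8a2, Col11a1 and Col12a1, and none was higher. The fibrillar collagens of connective tissue did not pass: Col1a1 had 255, 189.6 and 196 CPM in RL, against 309.8, 350.4 and 202 CPM in CTL (log2 fold change -0.43, SE 0.19, adjusted p = 0.31), and Col3a1 had a log2 fold change of 0.23. Of 59 proteoglycans and matricellular proteins, 3 were higher, Vcan, Lum and Ctgf, and 5 lower, all 5 of them tenocyte markers. Vcan had 37.3, 26.6 and 39.6 CPM in RL, against 22.8, 20.6 and 20.5 CPM in CTL (log2 fold change 0.69, SE 0.14, adjusted p = 0.022). Lum, a keratan sulphate proteoglycan, had 27.5, 25.9 and 30.6 CPM in RL, against 17.9, 14.8 and 18.5 CPM in CTL (log2 fold change 0.71, SE 0.12, adjusted p = 0.0068), whereas its close relative Kera had 8.89, 8.85 and 10.3 CPM in RL, against 16.6, 13.6 and 14.3 CPM in CTL (log2 fold change -0.67, SE 0.12, adjusted p = 0.01). Among 38 proteases, inhibitors and lysyl oxidases, Mmp12, Adam8 and Loxl1 were higher and Adamts20, Timp3 and Timp4 lower. Timp4, an inhibitor of matrix metalloproteinases, had 6.23, 11.7 and 9.94 CPM in RL, against 18.1, 19.2 and 20.2 CPM in CTL (log2 fold change -1.05, SE 0.18, adjusted p = 0.0098). The integrins higher in RL were Itgam, Itgax and Itgb2, the leukocyte integrins, and Itga5. Fibroblast and fibro-adipogenic markers gave 2 increases among 22 tested, Lum and Ly6a, and Pdgfra, their surface marker, had a log2 fold change of -0.25 and did not pass. The collagen count was 1 without RL 3, CTL 1 or CTL 2 and 6 without CTL 3, and 4 collagens were higher without RL 2. The 3 proteoglycan increases were 1 without RL 1, 7 without RL 2 and 0 without RL 3, and the 5 decreases were 3 without RL 1 or RL 3. The 3 protease increases were 0 without RL 1, RL 3 or CTL 2, 1 without CTL 1 and 8 without RL 2, and the 3 decreases were 1 without RL 1, RL 2 or CTL 2 and 0 without RL 3. The 4 integrins were 2 without RL 1, RL 3 or CTL 2. The 2 fibroblast increases were 1 without RL 1 or CTL 2 and 0 without RL 3. With all 9 libraries 1 collagen and 1 proteoglycan were lower, 1 proteoglycan, 1 integrin and 1 fibroblast marker were higher, and no protease or inhibitor passed.

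Vessel genes changed one by one. Apln (chrX:48025146-48034853), the peptide apelin that endothelial tip cells secrete, had 10.8, 4.98 and 9.75 CPM in RL, against 1.603, 1.26 and 1.16 CPM in CTL (log2 fold change 2.65, SE 0.27, adjusted p = 0.00088), the largest increase after Cdkn1a among genes with a regular symbol whose mean log2 CPM was 1 or more. Its receptor Aplnr had a log2 fold change of -0.18 and did not pass. Nrp2, a receptor of semaphorins and growth factors, and Adm, which codes for the vasodilator adrenomedullin, were higher. Tek, the angiopoietin receptor, had 13.3, 17.6 and 15.1 CPM in RL, against 24.7, 24.5 and 19.9 CPM in CTL (log2 fold change -0.59, SE 0.13, adjusted p = 0.033). Dll4 had 2.73, 2.13 and 2.21 CPM in RL, against 3.68, 3.96 and 3.41 CPM in CTL (log2 fold change -0.65, SE 0.16, adjusted p = 0.0498). Of 30 endothelial markers, 1 was higher, Mmrn2, and 3 were lower, Tek, Aqp1 and Car4. Aqp1, the water channel of capillaries, had 69.4, 78.0 and 76.4 CPM in RL, against 119, 123 and 132 CPM in CTL (log2 fold change -0.74, SE 0.10, adjusted p = 0.0035). Car4, a carbonic anhydrase of the capillary surface, had 0.179, 0.147 and 0.170 CPM in RL, against 0.626, 1.07 and 0.890 CPM in CTL (log2 fold change -2.36, SE 0.35, adjusted p = 0.0052). The general endothelial genes Pecam1 (0.23), Cdh5 (0.21) and Kdr (-0.03) did not pass, and the summed level of the 30 markers was 839.8, 921 and 955 CPM in RL, against 986, 971 and 928 CPM in CTL. Vegfa (0.14) did not pass. Among vessel sprouting and angiogenic factors, the 3 increases were 1 without RL 3 or CTL 2 and 1 with all 9 libraries. The 2 decreases in that list were 0 without RL 1, RL 3, CTL 1 or CTL 2 and 0 with all 9 libraries, and 1 without RL 2 or CTL 3. None of 6 lymphatic markers tested passed edgeR's or DESeq2's test, with 2 at an unadjusted p under 0.05.

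Pericyte and nerve sheath genes gave 1 call in each list, both lower in RL. These are 5.88% and 4.76% of the tested members, beside 0.861% of all tested genes. Of 17 pericyte and smooth muscle markers tested 1 passed, Pdgfrb, the receptor that defines pericytes, at 16.9, 18.3 and 17.9 CPM in RL, against 26.8, 27.3 and 25.8 CPM in CTL (log2 fold change -0.59, SE 0.10, adjusted p = 0.0067). The summed level of all 18 was 1440.2, 1359 and 1291 CPM in RL, against 1644, 1794 and 1591 CPM in CTL. Des, the desmin gene, which muscle fibres express too, led this sum with 807, 684 and 649 CPM in RL, against 864, 1054 and 847 CPM in CTL, so the sum is not a measure of pericytes alone. Of 21 Schwann cell markers tested 1 passed, Drp2, a dystrophin-related protein of the myelin sheath, at 2.91, 4.18 and 4.63 CPM in RL, against 6.24, 6.07 and 6.41 CPM in CTL (log2 fold change -0.67, SE 0.16, adjusted p = 0.045), and 16 of 21 had negative values. Sox10 (-0.79) did not pass. Their summed level was 53.1, 66.8 and 72.3 CPM in RL, against 82.4, 76.0 and 81.1 CPM in CTL. Sums of both lists did not overlap between the groups (exact permutation p = 0.1 for each, the smallest possible). All RL libraries lay below all CTL libraries for 9 of the 17 pericyte and 9 of the 21 Schwann cell markers, beside 10.2% of all tested genes. They lay above for 0 and 1, beside 10.4%. None of 16 adipocyte and none of 10 erythroid markers tested passed edgeR's or DESeq2's test, with 1 and 4 at an unadjusted p under 0.05. Angptl7 (chr4:148495183-148500460), a secreted angiopoietin-like factor, had 9.81, 9.97 and 11.3 CPM in RL, against 25.2, 19.9 and 28.9 CPM in CTL (log2 fold change -1.25, SE 0.14, adjusted p = 0.0013).

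Growth factor pathways gave isolated calls. In the transforming growth factor beta and activin list, the receptors Acvr1b and Tgfbr3 were lower among 26 tested. Acvr1b, the type I activin receptor through which myostatin also signals, had 20.9, 21.1 and 21.4 CPM in RL, against 29.8, 31.8 and 29.2 CPM in CTL (log2 fold change -0.52, SE 0.09, adjusted p = 0.013). Mstn had a log2 fold change of -0.28 and did not pass. In the bone morphogenetic protein list 1 of 22 passed, Id1, a transcription factor that blocks differentiation, at 3.83, 3.74 and 3.42 CPM in RL, against 1.63, 2.56 and 2.08 CPM in CTL (log2 fold change 0.81, SE 0.18, adjusted p = 0.033). Of 26 Wnt genes Wif1 and Wnt4 fell, and 23 of the 26 had negative log2 fold changes. Of 29 genes of fibroblast, hepatocyte and epidermal growth factors, Fgfr4 and Met fell. Met, the receptor that wakes satellite cells from quiescence, had 21.7, 24.2 and 21.7 CPM in RL, against 31.6, 29.2 and 35.4 CPM in CTL (log2 fold change -0.51, SE 0.11, adjusted p = 0.026). In the insulin-like growth factor axis Igfbp7 rose, at 25.8, 22.7 and 22.6 CPM in RL, against 18.0, 17.7 and 16.3 CPM in CTL (log2 fold change 0.45, SE 0.10, adjusted p = 0.037), while Igf1 (0.17) and Igf1r (-0.19) did not pass. Guidance genes gave Sema4a and Nrp2 higher and Sema3a and Sema6a lower among 45 tested. Sema6a had 4.70, 5.86 and 5.12 CPM in RL, against 12.0, 11.9 and 8.99 CPM in CTL (log2 fold change -1.07, SE 0.14, adjusted p = 0.0033). The activin list's 2 decreases were 0 without RL 1 or RL 3 and 1 in each other fit with 1 library left out. The 2 Wnt decreases were 1 without RL 1, RL 3, CTL 1 or CTL 2. Fgfr4 and Met's list had 0 decreases without RL 1, RL 3 or CTL 3 and 1 without CTL 1. The guidance increases were 1 without RL 1 or CTL 3 and 0 without RL 3 or CTL 2, and the decreases were 1 without RL 1, RL 3 or CTL 1. With all 9 libraries 1 gene of these lists passed, a guidance gene lower in RL. In these lists 4.35% to 8.89% of the tested members passed, beside 3.48% over all genes.

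Clock genes changed in both directions. The circadian clock is a loop in which Arntl and its partners Clock and Npas2 drive Per and Cry genes, whose proteins then repress them. Of 22 tested, 2 were higher, Arntl and Npas2, and 6 lower, Per3, Cry2, Dbp, Tef, Hlf and Bhlhe41. Arntl had 13.4, 10.9 and 13.9 CPM in RL, against 8.09, 8.12 and 5.34 CPM in CTL (log2 fold change 0.82, SE 0.16, adjusted p = 0.018). Per3 had 19.1, 27.2 and 20.3 CPM in RL, against 39.1, 37.5 and 38.6 CPM in CTL (log2 fold change -0.79, SE 0.13, adjusted p = 0.0073). Dbp, an output factor of the clock, had 16.5, 23.6 and 15.2 CPM in RL, against 28.9, 33.4 and 33.6 CPM in CTL (log2 fold change -0.79, SE 0.15, adjusted p = 0.017). For each of these genes the groups did not overlap, and RL 2 was the RL library nearest to CTL. Per2 (-0.79), Nr1d1 (0.05) and Clock (0.30) did not pass. The hour at which each muscle was taken is not given in the sources used here, so group and hour cannot be told apart. The 2 increases were 0 without RL 1 and 0 without RL 3, and 1 without CTL 1, CTL 2 or CTL 3. The count of 6 decreases was 2 without RL 1, 0 without RL 3, 3 without CTL 2, 3 without CTL 3, 3 with a replicate term and 0 with all 9 libraries, where no clock gene passed. The Per3 promoter is shown because it holds a pair of D-boxes, the site for Dbp, Tef and Hlf, in capitals (RefSeq, GRCm38.p6, chr4:151044791-151044895, minus strand).
Per3: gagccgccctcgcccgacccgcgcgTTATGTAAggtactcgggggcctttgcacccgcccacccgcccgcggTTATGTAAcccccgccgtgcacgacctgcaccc
The D-box letters TTATGNAA, searched on both strands, were present in 2.44% of the promoters of tested genes. Among clock genes with a sequence they were present in 2 of the 18 tested and in 1 of the 8 that passed. Of 25 immediate early genes, 2 rose, Klf6 and Klf10 (0 without RL 3 and 6 without CTL 2), and Fos (0.20) and Egr1 (0.12) did not pass.

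Energy metabolism and protein synthesis genes gave almost no calls. None of 75 nuclear genes of oxidative phosphorylation, 30 genes of the citric acid cycle, 37 of fatty acid oxidation, 61 ribosomal proteins and 31 proteasome subunits passed edgeR's or DESeq2's test. Unadjusted p-values under 0.05 numbered 1, 1, 3, 1 and 0 in these lists. Their median log2 fold changes were 0.01, -0.02, -0.02, -0.06 and -0.03. The 9 mitochondrially encoded genes tested all had positive log2 fold changes, and none passed edgeR's or DESeq2's test. Among them mt-Nd4 had 1876, 1739.8 and 1632 CPM in RL, against 1373, 961 and 1706 CPM in CTL (log2 fold change 0.38, SE 0.18, adjusted p = 0.38), with CTL 2 the lowest library. In glycolysis 1 of 32 genes passed, Slc2a3, a glucose transporter, at 2.48, 2.74 and 2.08 CPM in RL, against 5.48, 4.94 and 4.30 CPM in CTL (log2 fold change -1.01, SE 0.16, adjusted p = 0.0062). That is 3.1% of the list, beside 3.48% of all tested genes. The glycolysis median was -0.16, and 23 of the 32 had negative log2 fold changes. For 8 of the 32 all RL libraries lay below all CTL libraries (10.2% of all tested genes), and for 1 above (10.4%). The list's summed level was 23315, 18883 and 22147 CPM in RL, against 23428, 25058 and 24989 CPM in CTL (exact permutation p = 0.1, the smallest possible). In lipid synthesis 1 of 32 passed, Mid1ip1, an activator of acetyl-CoA carboxylase, at 5.87, 5.30 and 5.50 CPM in RL, against 8.64, 7.95 and 13.1 CPM in CTL (log2 fold change -0.83, SE 0.17, adjusted p = 0.025). In the stress lists Sesn2 was the single increase among 26 ATF4-related genes and Dnajb1, a co-chaperone, the single increase among 33 chaperone genes. The shares called in the lipid synthesis, ATF4-related and chaperone lists, 3.1%, 3.85% and 3.03%, lay near the 3.48% over all tested genes. None of 23 imprinted growth genes passed edgeR's test, 2 passed DESeq2's and 5 had an unadjusted p under 0.05. Of 20 glucocorticoid-responsive genes tested, Cdkn1a was the only one to pass (5% of the list, beside 3.48% of all tested genes), and Fkbp5, a sensitive target of that hormone, did not.

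All tested genes, list members included, were also grouped by the stem of the symbol. The Ifi, Clec and Cd stems hold genes already counted in the lists above, such as Ifi209, Clec4a1 and Cd74. Of 85 stems with at least 15 tested genes, covering 3254 genes, 46 had no gene that passed. The stem Ifi had 10 of 15 higher, Clec, the C-type lectins, 6 of 17, Cd 16 of 60 and Ptpn 4 of 15. Histone genes (Hist) had 3 of 37 higher and a median log2 fold change of 0.54. Stems of general machinery had no gene that passed edgeR's or DESeq2's test: these were Mrps, mitochondrial ribosomal proteins (29 genes, 2 with an unadjusted p under 0.05), Polr, RNA polymerase subunits (28 genes, 1 such) and Med, Mediator subunits (30 genes, 2 such). Gm10800, a predicted gene named after its values were seen, had the largest log2 fold change of the genes that passed, with 2.96, 2.79 and 2.497 CPM in RL, against 0, 0.0281 and 0.119 CPM in CTL (log2 fold change 5.81, SE 0.44, adjusted p = 0.00018). The similarly named Gm10801 had 0.996, 0.929 and 0.994 CPM in RL, against 0.0250, 0 and 0.0593 CPM in CTL. Ddias, a DNA damage-induced suppressor of apoptosis also named after its values were seen, had 0.894, 0.733 and 0.630 CPM in RL, against 0.0751, 0 and 0 CPM in CTL (log2 fold change 4.62, SE 0.62, adjusted p = 0.0033). Gm28653, a long noncoding RNA chosen likewise, had 3.68, 4.81 and 3.20 CPM in RL, against 0.225, 0.253 and 0.920 CPM in CTL (log2 fold change 3.09, SE 0.38, adjusted p = 0.0023). Among small RNAs 1 of 125 passed, Mir1a-1, a precursor of a muscle microRNA, at 1.30, 1.47 and 1.33 CPM in RL, against 2.25, 3.06 and 1.99 CPM in CTL (log2 fold change -0.83, SE 0.20, adjusted p = 0.048). A precursor locus in total RNA reports transcription of the region and not the mature microRNA.

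The 15 largest increases among genes with a regular symbol whose mean log2 CPM was 1 or more were Cdkn1a, Apln, Irf7, Ifit1, Siglec1, Top2a, Mpeg1, Oas2, Mki67, Ccr2, Cd84, Slfn2, Ccnd1, Tlr8 and Laptm5. Most are immune genes: Siglec1 is the sialic acid receptor of macrophages, at 9.99, 4.35 and 8.44 CPM in RL, against 1.95, 1.29 and 1.90 CPM in CTL (log2 fold change 2.14, SE 0.28, adjusted p = 0.0032). Mpeg1 is the macrophage pore protein perforin-2, at 12.1, 7.84 and 12.3 CPM in RL, against 3.05, 2.70 and 1.96 CPM in CTL (log2 fold change 2.06, SE 0.20, adjusted p = 0.00071). The 15 largest decreases were Wif1, Chad, Cilp2, Clmn, Angptl7, Chodl, Col8a2, Sema6a, Timp4, Col11a1, Slc2a3, Galnt15, Odf3l2, Bmf and Kcnn2. They spanned log2 fold changes of -1.47 to -0.90, against 2.66 to 1.802 for the increases. In the opposite limb, whose comparison shares the CTL libraries and was not tested, 3 of these 15 increases had all CL libraries above all CTL libraries (3.91% of all genes did), and 4 of the 15 decreases had all CL below all CTL (5.48% of all genes did). The CL mean lay above the CTL mean for each of the 15 increases and below it for each of the 15 decreases. For Top2a, Mpeg1, Mki67, Slfn2 and Laptm5, CL 1 lay above every RL library. Mpeg1 had 19.9, 2.49 and 5.89 CPM in CL 1, 2 and 3, on a scale fitted to all 9 libraries. Clmn, a calponin-like membrane protein, had 1.33, 1.30 and 1.07 CPM in RL, against 3.38, 2.92 and 2.85 CPM in CTL (log2 fold change -1.31, SE 0.18, adjusted p = 0.0035).

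The authors' deposited table for RL against CTL held 361 genes with an adjusted p under 0.05, 243 higher in RL and 118 lower. Of these, 296 also passed the edgeR test, which is 82.0% of the genes of the authors' deposited table and 58.6% of the 505, and all 296 had the same direction in both. DESeq2 run on the same 6 libraries called 555 of the genes that edgeR tested (3.82%), and 451 of the 505 were among them. When the 3 CL libraries were added to estimate the spread, 77 genes passed, 50 higher in RL and 27 lower, all of them among the 505. When CL 1 was left out of that fit, 600 passed, 455 higher and 145 lower.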

How the data were processed

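Gastrocnemius RNA, purified on RNeasy columns from muscle frozen in Trizol, was made into stranded total RNA libraries with a TruSeq kit, per the labels' protocols. The table tested here holds unnormalised counts for each gene, as deposited by the authors. They worked with GRCm38.p5 and DESeq2, per the submitters' processing notes. For the aligner, counting program, strand setting and annotation, nothing is given in the sources used here, so overlapping genes, antisense genes and close copies are uncertain. For RL against CTL the authors deposited log2 fold changes with adjusted p-values, per the file headers. Only the number of calls in that table and their direction were used.

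Of 49568 gene rows, 26 with names turned into dates by a spreadsheet were left out (at most 0.0536% of a library). Symbols matched GENCODE vM21 on GRCm38 for 47287 rows, 458 more through an older symbol, and coordinates are 1-based. The 3 RL and 3 CTL libraries were fitted alone with edgeR's quasi-likelihood test (edgeR 4.0.16, R 4.3.3), after its expression filter and trimmed-mean scaling, with no covariate. A gene was called when its Benjamini-Hochberg adjusted p fell under 0.05, whatever its fold. SE is the absolute log2 fold change over the square root of F. The procedure was tested on simulated data. Alternatives were DESeq2 1.42.0, limma-voom (limma 3.58.1), other scalings and filters, a fold limit of 1.5, a replicate term, all 9 libraries, and leaving out each library.

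Replicates are separate mice, as mouse numbers in the labels show. RL and CTL share replicate numbers but no mouse. The correlation of same-numbered deviations was -0.19, 0.02 and 0.03, so no pairing was used. Depth of 30836057 to 42768014 counts limits genes of low expression.

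Genes named by rule are the 15 largest increases and decreases among called genes with mean log2 CPM of at least 1, regular symbols and groups that do not overlap, the 8 most abundant in each direction, up to 4 called members of each list (or 2 with the smallest p), and Pax7, Cdkn1a, Myh4, Col1a1, Mki67 and Apln. All other genes named were picked with their values in view. The 71 lists were written from textbook knowledge. The comparison, lists and tests were chosen with earlier results of these data known, so patterns already seen there gain no independent support. Of 1970 list entries 2 were not found in the table. Promoters were taken from RefSeq (GRCm38.p6) for 10154 of the tested genes. Some members of the lists are counted but not reported here by name.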

Additional observations from a re-analysis of the deposited data

Results flagged for a closer look

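The opposite limb of the irradiated mice (CL) is not part of the comparison of RL with CTL. Both comparisons would share the CTL libraries, so the values below are set side by side without a test, on a scale fitted to all 9 libraries. Among all genes tested on that scale, all 3 CL libraries lay above all 3 CTL libraries for 3.91%. Of the 15 largest increases in RL, 3 genes met this condition. For all 15 the CL mean lay above the CTL mean.

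Cdkn1a averaged 11.6 CPM in RL and 3.80 CPM in CL, against 1.83 CPM in CTL. The CL libraries had 5.62, 3.05 and 2.73 CPM, against 1.58, 2.17 and 1.73 CPM in CTL. All 3 RL libraries lay above all 3 CL libraries.

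Tlr8 averaged 3.18 CPM in RL and 2.02 CPM in CL, against 0.884 CPM in CTL, and the CL libraries had 3.07, 1.04 and 1.95 CPM. Laptm5 averaged 7.03 CPM in RL and 7.42 CPM in CL, against 2.01 CPM in CTL. Its CL values of 15.5, 2.20 and 4.58 CPM were spread widely, with CL 1 above every RL library.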

How the results depend on the processing

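The count of 505 genes (380 higher in RL, 125 lower) was 497 with DESeq2's size factors, 526 without mitochondrially encoded genes, 573 with DESeq2 over all genes it tested and 420 with limma-voom. Without a filter on low counts 1166 genes passed (847 higher, 319 lower). Genes tested in both fits gained calls too, and the cause was not tested. With a fold limit of 1.5 the count was 107 (101 higher, 6 lower). Fitting all 9 libraries gave 77 (50 higher, 27 lower). The fit without CL 1, added after the libraries were seen, gave 600, and no cause was tested. Leaving out 1 library gave 152 to 698 genes, 132 to 571 higher and 20 to 127 lower. A replicate block gave 416 genes, 340 higher and 76 lower. RL and CTL numbers mark different mice, and the check of pairing in the processing account found none.

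Of 138 named genes that passed, 70 passed in every fit with 1 library left out, and none changed direction under any alternative run. Sfn, which did not pass at a log2 fold change of 0.25, stood at -0.068 without RL replicate 2, within a range of -0.068 to 0.44 over the fits that left out 1 library. Depth limits genes under about 1 CPM.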

Other observations

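The following 3 loci stood out in CTL 1 and were chosen after their values were seen; none passed. Mir6236 had 1.58, 2.30 and 2.497 CPM in RL, against 59.2, 4.69 and 3.38 CPM in CTL (adjusted p = 0.067, edgeR). Gm15564 had 0.255, 0.440 and 0.412 CPM in RL, against 15.8, 0.309 and 0.949 CPM in CTL. Lars2 had 12.5, 9.24 and 11.2 CPM in RL, against 89.1, 14.0 and 17.5 CPM in CTL. In each of these the value of CTL 1 was the highest of the 6 libraries.

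Among the 8 most abundant decreases were genes of varied function. Tef, a clock output factor that binds D-boxes, had 100.9, 110.1 and 102 CPM in RL, against 132, 139.7 and 148 CPM in CTL. Tln2, a talin that links integrins to actin, had 103, 85.5 and 74.6 CPM in RL, against 131, 143 and 118 CPM in CTL. Adgrf5, an adhesion G protein-coupled receptor, had 55.7, 63.0 and 72.7 CPM in RL, against 90.1, 87.7 and 91.9 CPM in CTL. The groups did not overlap for these genes. Leaving out 1 library kept Tef past the test in 1 of 6 fits, Tln2 in 2 of 6 and Adgrf5 in 0 of 6.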
